A study of Mus musculus with 4 samples.

Results

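Potassium channel genes that are known from glia and vessels were followed through every cell type of the dissociated mouse dorsal root ganglion (DRG). The 8 genes are *Kcnj10*, *Kcnj16*, *Kcnj8*, *Abcc9*, *Kcnj2*, *Kcna1*, *Kcna2* and *Kcnn3*, taken by symbol from the 33456 genes of the deposited tables. DRG of C57BL/6 mice, females of 8 to 12 weeks with no transgene, were taken from naïve mice (control) or 3 days after a crush of the sciatic nerve (injury). The labels name ganglia at L4, the methods of the study those at L4 and L5. Ganglia of several mice were pooled for each library, digested with papain and collagenase and sorted for live cells, and 2 libraries per condition were sequenced as droplet single-cell RNA-seq. The 4 libraries held 6975 barcodes and 5585909 to 11210875 unique molecular identifiers (UMIs, counted RNA molecules) each, with a median of 2756 to 4934.5 UMIs per barcode. Any pair of libraries shared 1 to 6 barcode sequences. Pooled mice are not told apart within a library, so the spread between libraries is a spread between pools.

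*Kcnj10* encodes Kir4.1, the inward rectifier by which satellite glial cells (SGC) and astrocytes take up the potassium that firing neurons release. *Kcnj16* encodes Kir5.1, which has little current of its own and assembles with Kir4.1. *Kcnj8* and *Abcc9* encode Kir6.1 and the sulfonylurea receptor SUR2, pore and regulatory subunit of the ATP-sensitive potassium channel of mural cells, and *Kcnj2* encodes the inward rectifier Kir2.1. *Kcna1* and *Kcna2* encode the voltage-gated channels Kv1.1 and Kv1.2, which cluster beside the nodes of Ranvier in myelinated axons. *Kcnn3* encodes the small-conductance calcium-activated channel SK3.

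Within the genome several of these genes are neighbours, positions being those of GRCm38 with the GENCODE annotation. *Kcnj8* (chr6:142564837-142571614) and *Abcc9* (chr6:142587862-142702315) lie 16.2 kb apart on the minus strand with no protein-coding gene between them. *Kcnj16* (chr11:110968033-111027968) and *Kcnj2* (chr11:111066164-111076821) lie 38.2 kb apart on the plus strand. *Kcna1* (chr6:126640397-126646384, minus strand) has *Kcna6* at 61.9 kb and *Kcna5* at 105 kb, and *Kcnj10* (chr1:172341210-172374085, plus strand) has *Kcnj9* at 11.9 kb. *Kcna2* (chr3:107101146-107115005) and *Kcnn3* (chr3:89520164-89675132) are both on the plus strand of chromosome 3. *Abcc9* overlaps the antisense gene 5330439B14Rik, and the strand used in counting is not given in the sources used here.

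The promoters below are those of 4 genes from the SGC, pericyte and fibroblast patterns, with the neighbours *Kcnj8* and *Abcc9* side by side. Each is the 250 bases before the RefSeq start (GRCm38.p6), 5′ to 3′ on the strand of the gene, and 7 of the 8 genes matched the RefSeq table. Capitals mark a match to one of the 3 motifs searched on both strands, the SOX core ACAAAG, the RBPJ core TGGGAA and the TATA box TATAAA.
Kcnj10 promoter, chr1:172340960-172341209 (+ strand): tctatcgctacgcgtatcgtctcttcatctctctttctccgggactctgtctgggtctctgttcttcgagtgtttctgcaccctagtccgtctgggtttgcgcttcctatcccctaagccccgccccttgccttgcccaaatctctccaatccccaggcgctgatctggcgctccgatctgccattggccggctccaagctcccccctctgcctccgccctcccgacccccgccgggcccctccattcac
Kcnj8 promoter, chr6:142571615-142571864 (- strand): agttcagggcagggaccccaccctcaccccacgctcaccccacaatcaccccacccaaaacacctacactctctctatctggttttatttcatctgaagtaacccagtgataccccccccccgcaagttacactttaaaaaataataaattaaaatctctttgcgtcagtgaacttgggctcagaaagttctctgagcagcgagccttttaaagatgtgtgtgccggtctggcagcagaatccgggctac
Abcc9 promoter, chr6:142702275-142702524 (- strand): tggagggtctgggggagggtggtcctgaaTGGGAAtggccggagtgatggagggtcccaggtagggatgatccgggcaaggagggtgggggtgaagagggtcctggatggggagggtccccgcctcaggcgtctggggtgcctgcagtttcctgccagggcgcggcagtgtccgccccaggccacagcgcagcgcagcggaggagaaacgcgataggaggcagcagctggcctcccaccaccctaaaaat
Kcnj2 promoter, chr11:111065914-111066163 (+ strand): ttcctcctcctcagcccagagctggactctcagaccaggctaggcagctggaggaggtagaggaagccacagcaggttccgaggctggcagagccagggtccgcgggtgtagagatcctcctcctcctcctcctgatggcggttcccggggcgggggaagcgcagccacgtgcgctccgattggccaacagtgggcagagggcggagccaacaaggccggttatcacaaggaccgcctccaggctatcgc
Of the windows shown, only that of *Abcc9* held a match, 1 copy of TGGGAA, while those of *Kcnj10*, *Kcnj8* and *Kcnj2* held none of these letters. Of the windows not shown, *Kcnj16*, with several starts, held TGGGAA in 1 and TATAAA in another. The *Kcnn3* window held TGGGAA and that of *Kcna2* no match. TGGGAA occurred in 21.6%, ACAAAG in 16.5% and TATAAA in 12.4% of all 32851 RefSeq promoters of this length. GC content was 62% for *Kcnj10*, 66.8% for *Abcc9* and 65.6% for *Kcnj2*, against 49.2% for *Kcnj8*. A match describes letters in this window and was not tested as a binding site.

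Cell types were gated on marker genes that include none of the 8 channels. Gated types took up 5574 barcodes, among them 1408 SGC, 247 myelinating and 65 nonmyelinating Schwann cells, 221 pericytes, 176 smooth muscle cells, 453 endothelial cells, 1258 fibroblasts, 1116 macrophages and 351 neurons. The SGC marker list summed to between 11324 and 18731 UMIs per 1000000 UMIs (CPM) in SGC of the 4 libraries. In nonmyelinating Schwann cells it reached 1092 to 2152 CPM and in myelinating Schwann cells 53.1 to 116 CPM, and neurons held 378 to 805 CPM of it. The pericyte list summed to 9580 to 18855 CPM in pericytes and 4084 to 5108 CPM in smooth muscle cells, so those gates are not sharply separate. Neurons were taken from all deposited barcodes, since 285 of the 351 lie outside the size limits of the study, and their median was 20785 UMIs against 3968 in SGC. Nonmyelinating Schwann cells numbered 18, 2, 42 and 3 and pericytes 78, 15, 119 and 9 in control 1, control 2, injury 1 and injury 2. Sums of fewer than 10 cells were left out of means and tests, except in a test of neurons by fibre class noted below.

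**Figure D1:**
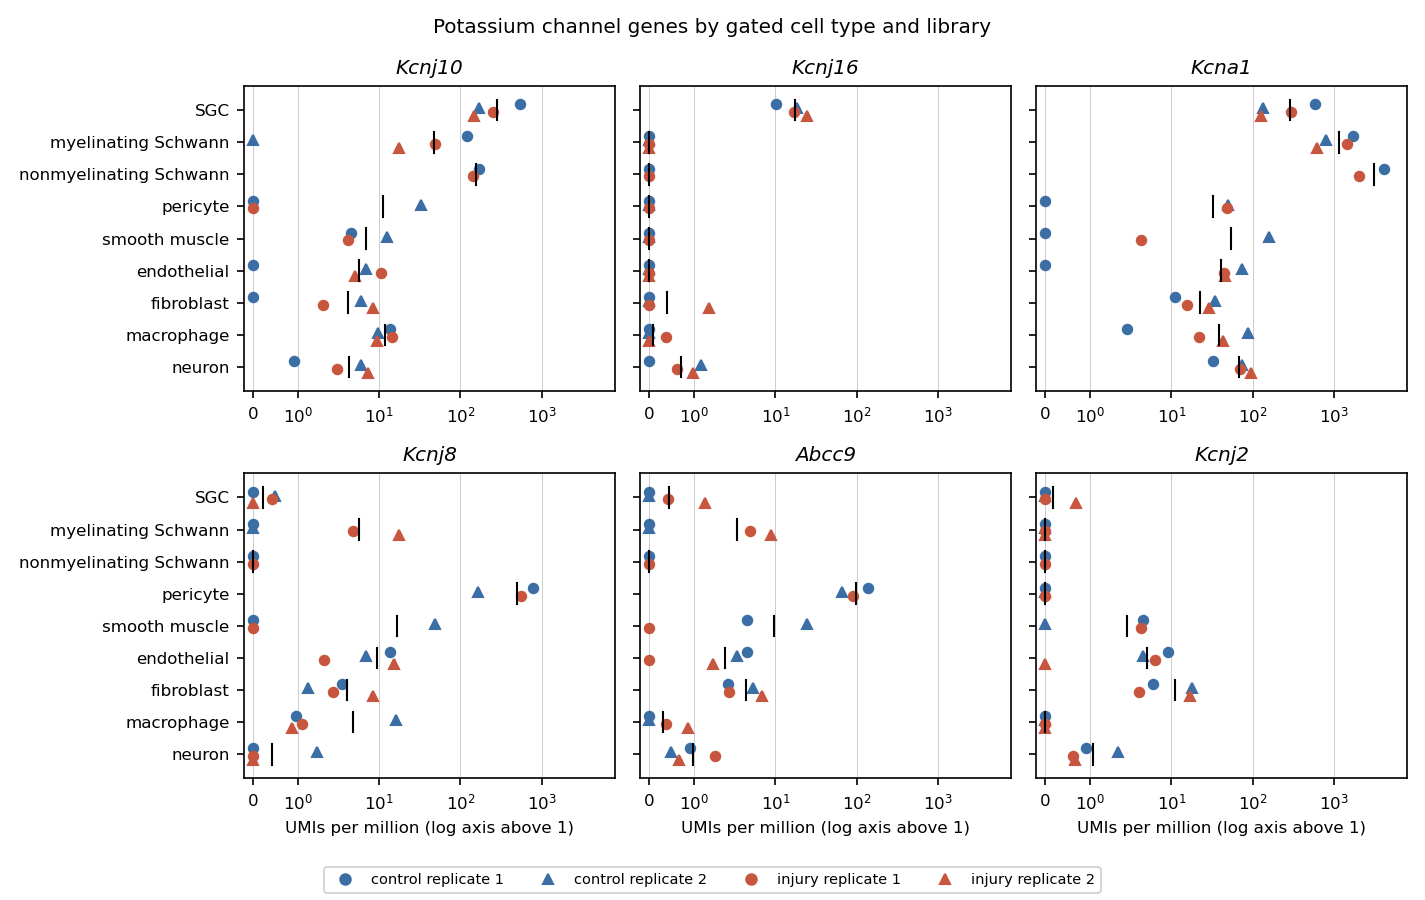
Level of *Kcnj10*, *Kcnj16*, *Kcna1*, *Kcnj8*, *Abcc9* and *Kcnj2* in CPM (horizontal axis, logarithmic above 1) by gated cell type (vertical axis), with 1 point for each library that has at least 10 cells of the type and a line at their mean. *Kcnj10* stands at 148 to 547 CPM in SGC, *Kcna1* at 628 to 4197 CPM in the Schwann gates and *Kcnj8* at 165 to 779 CPM in pericytes.

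Kir4.1 and Kir5.1 RNA had their highest measured levels in SGC. *Kcnj10* measured 547 CPM in control 1, 169 in control 2, 250 in injury 1 and 148 in injury 2, with a mean of 278 ± 184 CPM (SD, n = 4). Nonmyelinating Schwann cells came next, with 171 CPM in control 1 and 144 in injury 1, and myelinating Schwann cells held 121, 0, 48.0 and 17.7 CPM. Of the nonmyelinating values one lies inside the SGC range and the other just below it. Where a library had at least 10 cells of both, SGC were higher, in control 1 (547 against 171 CPM) and injury 1 (250 against 144). These libraries are too few to set the types apart. The myelinating values lie below all 4 SGC values. SGC gave 1271 of the 1497 *Kcnj10* UMIs in gated cells, or 84.9%.

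Against the mean of the other types, *Kcnj10* was higher in SGC (edgeR quasi-likelihood log2 fold 4.99, SE 0.36, adjusted p 5.22e-12). It was the only one of the 4 channel genes with enough counts for this fit that was called in SGC, where a call needs an adjusted p under 0.05 and a change of 4-fold or more, and 11.3% of the 8236 genes tested were called. *Kcna1* fell short of 4-fold in this fit, and its call in SGC depended on the setting. Directly against myelinating Schwann cells the log2 fold of *Kcnj10* was 2.31 (SE 0.51, adjusted p 0.00129). Against nonmyelinating Schwann cells it was 1.17 (SE 0.73, 95% interval −0.33 to 2.67, adjusted p 0.514), which did not pass. The nonmyelinating interval reaches from a slightly lower to a 4-fold and more higher level in SGC, with only 2 nonmyelinating sums behind it. Where other types sit at 0 CPM the size of a fold against their mean depends on the prior count of the fit, and the levels above are then the firmer description.

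In single SGC the channel was sampled thinly. Of 1408 SGC, 780 held a *Kcnj10* UMI (55.4%, exact 95% interval 52.8 to 58.0), 478 of these held just 1, and the highest count was 7. With each cell thinned to 1000 UMIs the share was 19.2%, against 13.3% in nonmyelinating and 5.66% in myelinating Schwann cells. The thinned share was 1.27% in macrophages, 1.29% in neutrophils, 0.734% in neurons and 0.364% in fibroblasts. Intervals on shares and levels cover counting error only.

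Neuronal *Kcnj10* RNA was found in barcodes that also carried SGC markers. The neuronal levels were 0.897, 5.89, 3.03 and 7.19 CPM, and the log2 fold against SGC was −5.56 (SE 0.47, adjusted p 4.55e-11), 1 of the 2 channel genes called in this contrast of 4 tested, where 26.1% of all genes were called. All 52 neuronal UMIs fell in the 292 neurons with 2 or more of the 9 SGC markers, and the 59 neurons with 0 or 1 marker had none. The former were also the deeper ones, with a median of 22138.5 against 14797 UMIs. Of the 52 UMIs, the 165 neurons with 0 to 2 SGC markers held 4.

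In macrophages most of the *Kcnj10* RNA lay in cells with 0 or 1 SGC marker. Its level was 13.4, 9.71, 14.3 and 9.38 CPM in the 4 libraries, and 1066 of 1116 macrophages had 0 or 1 SGC marker. These held 50 UMIs in 49 cells, or 10.1 CPM (95% counting interval 7.50 to 13.3), and the libraries gave 13.5, 7.19, 10.8 and 5.71 CPM. Fibroblasts with 0 or 1 SGC marker held 1.54 CPM (0.663 to 3.02) and endothelial cells 2.43 CPM (0.790 to 5.68), both with pooled intervals below that of macrophages. By library, fibroblasts held 0, 1.44, 1.38 and 3.31 CPM and endothelial cells 0, 2.40, 2.23 and 3.64 CPM, each below the macrophages of that library. Within single libraries, the endothelial counting interval always overlapped that of macrophages. The fibroblast interval did so in control 2 and injury 2. Neutrophils with 0 or 1 marker held 11.5 CPM (4.22 to 25.01) from 6 UMIs, so macrophages and neutrophils were not told apart. Cells with 2 or more SGC markers stood at 57.4 CPM in macrophages, 58.3 CPM in fibroblasts and 72.5 CPM in endothelial cells.

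**Figure D2:**
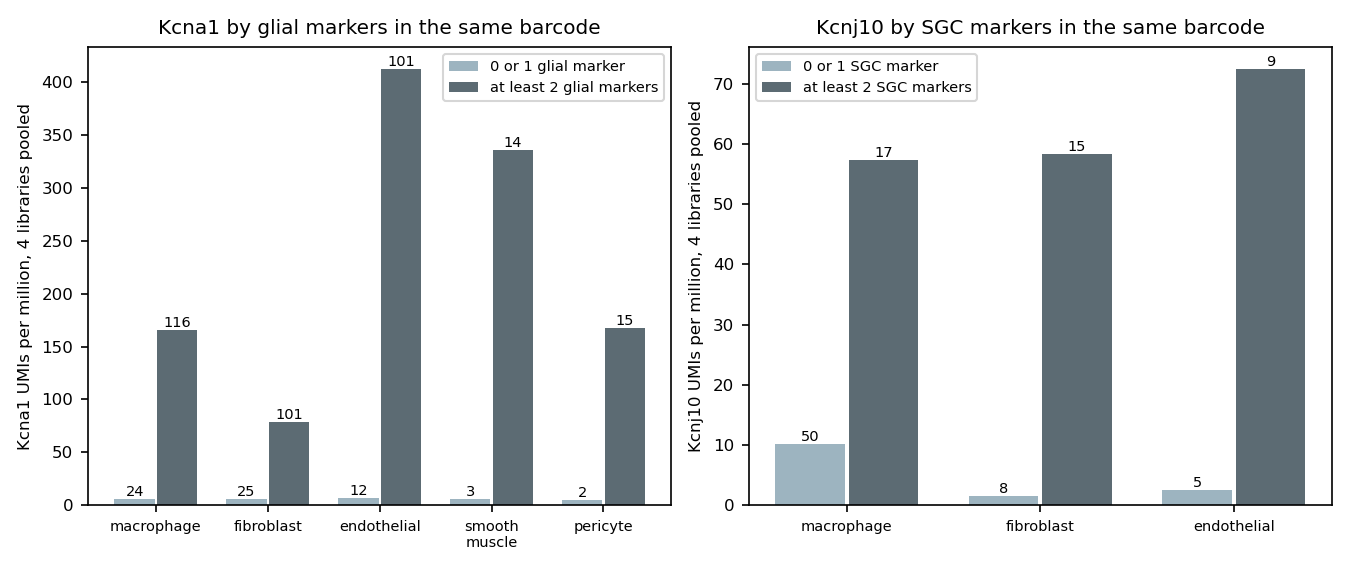
Bars give *Kcna1* (left, split by the SGC and Schwann markers) and *Kcnj10* (right, split by the SGC markers) as CPM over the 4 pooled libraries (vertical axis) in non-glial types (horizontal axis), light for barcodes with 0 or 1 marker and dark for 2 or more, with the number of UMIs above each bar. *Kcna1* stands at 4.29 to 6.21 CPM in the light and 78.8 to 413 CPM in the dark bars, and the light *Kcnj10* bars of the 3 types drawn are at 10.1 CPM in macrophages, 1.54 in fibroblasts and 2.43 in endothelial cells.

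*Kcnj16*, the partner subunit of *Kcnj10*, was seen almost entirely in the SGC gate. SGC held 10.1, 18.2, 16.8 and 24.7 CPM (17.5 ± 5.99, SD, n = 4) and 116 of the 128 UMIs in gated cells. Neurons held 9 UMIs, fibroblasts 2 and macrophages 1. Both Schwann gates, pericytes, smooth muscle and endothelial cells had none. Over the pooled libraries, the SGC level was 13.8-fold the floor of 3 counts in endothelial cells and 4.33-fold that in myelinating Schwann cells. It was 3.66-fold the floor in smooth muscle cells and 3.51-fold that in pericytes. The libraries hold unequal shares of each type, so these pooled ratios are not lower bounds within a library. In the 65 nonmyelinating Schwann cells the floor was 21.5 CPM, above the pooled SGC level of 19.0 CPM. Their 0 sets no bound, and *Kcnj16* does not tell them apart from SGC. Counts were too few for the fit across types.

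A *Kcnj16* UMI was seen in 107 SGC (7.60%, 1.73% after thinning), with at most 2 per cell. Both subunits were seen in 68 SGC, where the product of their shares gives 59.3. The SGC with a *Kcnj16* UMI were also the deeper ones, at a median of 5277 against 3883 UMIs. The part of depth in this count was not tested. Across 40 sums of library and type, which share libraries and differ in depth, the log levels of *Kcnj10* and *Kcnj16* correlated with r = 0.58. The genes whose profile was most like *Kcnj10* were *Dbi* (r = 0.87), *Slitrk2* (0.81) and *Ppp1r14c* (0.79), and those most like *Kcnj16* were *Omg* (0.94), *Rlbp1* (0.92) and *Smtnl2* (0.91).

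Kv1.1 RNA was highest in Schwann cells, lower in SGC and lower again in neurons. *Kcna1* reached 4197 CPM in control 1 and 2030 in injury 1 in nonmyelinating Schwann cells, and 1749, 800, 1474 and 628 CPM in myelinating Schwann cells (1163 ± 535, SD, n = 4). SGC held 587, 135, 296 and 127 CPM (286 ± 215) and neurons 32.3, 75.1, 71.0 and 96.1 CPM (68.6 ± 26.6). With neurons taken as a whole, each of these 4 types lay above the next in every sum, so that their ranges did not overlap. Smooth muscle cells held 0, 159 and 4.16 CPM in control 1, control 2 and injury 1, which overlaps both SGC and neurons. Endothelial cells (0, 73.4, 44.0 and 45.6 CPM), macrophages (2.87, 87.4, 21.7 and 43.5) and fibroblasts (11.1, 34.4, 15.4 and 29.2) overlapped with each other and with neurons.

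The log2 fold of *Kcna1* in SGC against nonmyelinating Schwann cells was −3.21 (SE 0.71, adjusted p 0.00747) and against myelinating Schwann cells −2.19 (SE 0.59, adjusted p 0.00789). The share of all genes called was 2.44% and 9.08% in these contrasts, in which 1 and 2 of 4 channel genes were called. Against the mean of the other types the log2 fold was 5.31 (SE 0.59, adjusted p 3.93e-07) in nonmyelinating and 4.18 (SE 0.42, adjusted p 9.54e-09) in myelinating Schwann cells. *Kcnj10* was called higher beside it in both, by 3.70 (SE 1.06, adjusted p 0.0257) and 2.45 (SE 0.78, adjusted p 0.0206), so that 2 of 4 channel genes were called where 6.02% and 10.5% of all genes were. The *Kcnj10* call in myelinating cells was lost without control 1 (log2 fold 1.67) or injury 1 (2.80, adjusted p 0.0892), and that in nonmyelinating cells under a stricter gate lead of 2 (adjusted p 0.174). In SGC the log2 fold of *Kcna1* was 1.78 (SE 0.47, adjusted p 0.00359), short of 4-fold. It stayed uncalled in only 5 of 11 alternatives, over which the log2 fold ranged from 1.65 to 2.47. In the rest it passed, among them when control 2, injury 1 or injury 2 was left out. *Kcna1* was lower in fibroblasts (log2 fold −2.15, SE 0.63, adjusted p 0.00858), 1 of 4 channel genes called against 12.5% of all genes. The calls in SGC against myelinating Schwann cells and in fibroblasts ended when single libraries were left out, the first without injury 1 or injury 2, the second without control 1, control 2 or injury 1. The first was also lost with DESeq2 (−1.93) and a gate lead of 1 (−1.91), the second with the strict gate (−1.66) and a gate lead of 2 (adjusted p 0.172). The call against nonmyelinating Schwann cells ended without injury 2 (log2 fold −2.97, adjusted p 0.0588).

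Cell by cell, *Kcna1* was near uniform in the Schwann gates. It was seen in 92.3% of nonmyelinating and 90.3% of myelinating Schwann cells, or in 83.5% and 68.8% after thinning to 1000 UMIs, against 19.4% of SGC and 4.43% of neurons after thinning. Cells with the RNA held 5.82 UMIs on average in nonmyelinating, 3.92 in myelinating Schwann cells and 2.20 in SGC. The 40 SGC with a UMI of *Scn7a*, a nonmyelinating Schwann marker, had 689 CPM of *Kcna1* and the other 1368 SGC 198 CPM. *Kcnj10* was at 228 and 207 CPM in the same cells. SGC with a *Kcna1* UMI held 511, 167, 243 and 142 CPM of *Kcnj10* in the 4 libraries and those without 610, 170, 256 and 150 CPM, lower with *Kcna1* in 4 of 4 by a small margin. Over the pooled libraries the order turned, at 217 and 202 CPM, as the libraries hold unequal shares of the cells. Both RNAs were seen in 311 SGC where the product of the shares gives 324.

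Much of the *Kcna1* outside glia sat in barcodes that also carried glial markers. In macrophages, fibroblasts, endothelial cells, smooth muscle cells and pericytes together, the 453 cells with 2 or more SGC or Schwann markers held 347 UMIs, or 84.0% of the RNA. The 2771 cells with 0 or 1 glial marker held 66 UMIs. Their level was 4.29 CPM in pericytes, 5.28 in macrophages, 5.58 in smooth muscle cells, 5.97 in fibroblasts and 6.21 in endothelial cells. These levels lay close together in all 5 types, and the source of this RNA was not tested. A further 1443 of the 5392 *Kcna1* UMIs lay in barcodes within the size limits that met no gate. Of these, 634 were in barcodes closest to the SGC list, 474 in ones closest to the nonmyelinating list and 135 in ones closest to the myelinating list.

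*Kcna1* was uneven among neurons. Only 103 of 351 neurons held the RNA (29.3%), up to 107 UMIs in 1 neuron, and the 33 neurons with 5 or more UMIs held 83.8% of it. Neurons were split by which of 2 marker lists they carried more of. Those with more A-fibre markers (large, myelinated afferents) held 74.5, 186, 95.5 and 227 CPM, and those with more C-fibre markers (small, unmyelinated afferents) 21.0, 13.1, 42.0 and 28.1 CPM. A-fibre neurons were higher in 4 of 4 libraries, by 2.41 ± 1.15 on the log2(CPM + 1) scale (SD, n = 4, exact two-sided sign-flip permutation test p = 0.125, the smallest p that 4 libraries allow). The share of neurons with the RNA was 40, 30.9, 44.4 and 47.1% in A-fibre and 30.8, 13.4, 50 and 36.8% in C-fibre neurons. That order was reversed in injury 1. Among neurons with 0 to 2 SGC markers the difference was 2.23 ± 1.83, again in 4 of 4 libraries (exact permutation p = 0.125).

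The glial marker levels beside it were 574 CPM of the SGC list in A-fibre and 752 CPM in C-fibre neurons. The myelinating list stood at 20.05 and 14.5 CPM and the nonmyelinating list at 901 and 804 CPM, a list that includes adhesion genes which neurons also express. Among neurons with 0 to 2 SGC markers the SGC list stood at 342 CPM in A-fibre and 213 CPM in C-fibre neurons, the opposite order. The part of glial RNA in the *Kcna1* difference was not tested. *Kcna1* in neurons as a whole was lower than in SGC (log2 fold −2.02, SE 0.60, adjusted p 0.00492), the other of 2 channel genes called there. That fold just passes the 4-fold line, and its call ended under several settings and without control 1 or injury 1. A-fibre neurons alone stood above SGC in control 2 and injury 2 and below SGC in control 1 and injury 1. Among the profiles most like *Kcna1* were those of *Cmtm5* (r = 0.87) and *Sostdc1* (0.87).

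*Kcna2* was close to absent from the counts. The files held 14 *Kcna2* UMIs in 14 barcodes, 5 of them SGC and 1 each a myelinating Schwann cell, a nonmyelinating Schwann cell, a smooth muscle cell, a neutrophil and a neuron. The 1 UMI in the 351 neurons put Kv1.2 RNA there at a pooled 0.101 CPM, with a 95% counting interval of 0.00256 to 0.563. Counts were too few to rank the types, and why they were so low was not tested.

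**Figure D3:**
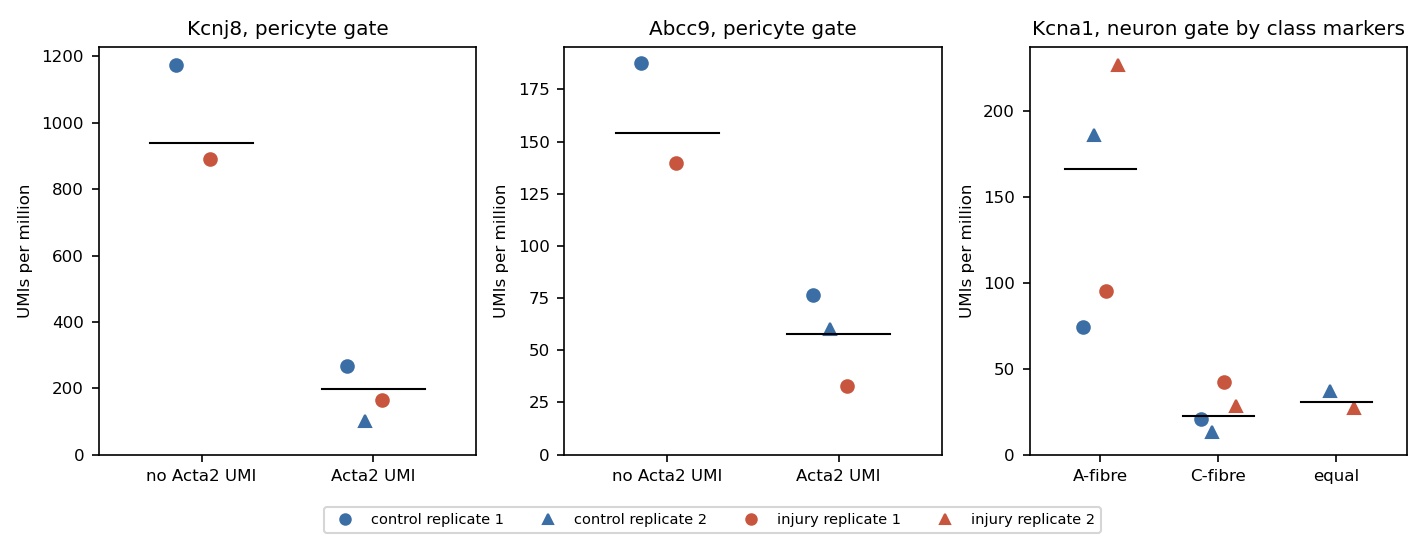
CPM (vertical axis) of *Kcnj8* and *Abcc9* in pericytes without and with an *Acta2* UMI, and of *Kcna1* in neurons by fibre class, with 1 point per library with at least 10 cells and a line at the value of the pooled libraries. *Kcnj8* stands at 892 to 1175 CPM without and 100 to 267 CPM with *Acta2*, and *Kcna1* is higher in A-fibre than in C-fibre neurons in each of the 4 libraries.

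Both subunits of the ATP-sensitive channel were highest in pericytes. *Kcnj8* measured 779 CPM in control 1, 165 in control 2 and 565 in injury 1 (503 ± 311, SD, n = 3), and the 9 pericytes of injury 2 held 13 UMIs, or 303 CPM. *Abcc9* measured 139, 66.2 and 91.8 CPM in the same libraries (99.0 ± 37.0), and 5 UMIs in the 9 pericytes of injury 2. Control 2 was the lowest for both genes and also for the pericyte list, at 9580 CPM. Its 15 pericytes carried 1870 CPM of the SGC list, against 38.9 in control 1 and 334 in injury 1. The smooth muscle list stood at 6900 CPM in them, against 4416 and 4163. This mixed sum is 1 of the 3 behind the pericyte means and tests. Pericytes held 81.1% of the *Kcnj8* and 55.1% of the *Abcc9* UMIs in gated cells.

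Smooth muscle cells, the other mural type, held *Kcnj8* at 0, 49.1 and 0 CPM and *Abcc9* at 4.43, 24.5 and 0 CPM in control 1, control 2 and injury 1. Their single higher library was control 2, the library in which pericytes were lowest. Pericytes exceeded smooth muscle cells, with a log2 fold of 5.94 for *Kcnj8* (SE 0.85, adjusted p 2.76e-05) and 3.96 for *Abcc9* (SE 0.78, adjusted p 0.000624), so 2 of 4 channel genes were called where 3.56% of all genes were. The *Abcc9* call was lost without control 1 (log2 fold 3.50, adjusted p 0.0785) or injury 1 (3.20, adjusted p 0.0520). Over endothelial cells the log2 fold was 5.95 for *Kcnj8* (SE 0.65, adjusted p 3.68e-08) and 5.49 for *Abcc9* (SE 0.69, adjusted p 2.24e-08), again 2 of 4 called, against 15.3% of all genes. Against the mean of the other types it was 8.36 (SE 0.52, adjusted p 3.75e-13) and 6.86 (SE 0.57, adjusted p 5.71e-13), with 10.4% of all genes called. Both genes passed the count filter through their pericyte sums. The count of 2 of 4 in these pericyte contrasts was thus partly set in advance and is not read as an excess. Smooth muscle, endothelial and neuronal contrasts against the other types called 0 of the 4 channel genes, where 11.5%, 12.6% and 21.2% of all genes were called.

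*Kcnj8* was seen in 59.7% of pericytes and *Abcc9* in 21.7%, or in 39.2% and 10.7% after thinning. Both were seen in 40 of 221 pericytes, where the product of the shares gives 28.7. *Kcnj8* was present in 83.3% of the pericytes with an *Abcc9* UMI and in 53.2% of the others, at a median depth of 2464 and 2171 UMIs. Over the 40 sums of library and type the profiles of the pair correlated with r = 0.83. The other profiles most like *Kcnj8* were *Sept7* (0.74), *Spry1* (0.73) and *Fhl2* (0.69), and most like *Abcc9* were *Ddit4l* (0.80), *Gucy1b3* (0.79) and *Sept7* (0.79).

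Within the pericyte gate, both genes were higher in cells without RNA of the smooth muscle actin *Acta2*, a split chosen after the values were seen. *Acta2* is one of the markers of the smooth muscle gate, so this split overlaps with the contrast of pericytes and smooth muscle cells. The 125 pericytes without *Acta2* had 939 CPM of *Kcnj8*, with 1175 in control 1 and 892 in injury 1. The 96 pericytes with *Acta2* had 199 CPM, with 267, 100 and 164 in control 1, control 2 and injury 1. *Abcc9* showed the same order, at 188 and 140 CPM without *Acta2* and 76.4, 60.3 and 32.7 CPM with it. The thinned share with *Kcnj8* was 57.3% and 15.9%, while the median depth was 2038 and 2583.5 UMIs, so the cells with the higher share were the shallower ones.

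Outside pericytes, *Kcnj8* in part followed pericyte markers. Of 19 UMIs in endothelial cells, 13 fell in the 16 cells with 2 or more pericyte markers, and of 10 in macrophages, 8 fell in 7 such cells. The endothelial level was 13.5, 6.77, 2.09 and 15.2 CPM. T cells also held the RNA. In control 1, 4 T cells held 5 UMIs of *Kcnj8*, none with 2 or more pericyte markers, and all 4 held *Cd3d*, *Cd3g*, *Trbc2*, *Il2rb* and *Nkg7* RNA, while 2 held *Cd3e*, 1 *Trac*, 1 *Klrb1c* and 0 *Ncr1*. *Cd3d*, *Cd3e*, *Cd3g*, *Trbc2*, *Trac* and *Il2rb* are among the markers of the T cell gate, so their presence was largely set by the gate. Among the other 62 T cells, *Il2rb* was present in 24 and *Nkg7* in 43. This rests on 4 cells of 1 library, with a thinned share of 2.91%.

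*Abcc9* was also found at a low level in fibroblasts. They held 24 UMIs in 23 cells, at 2.57, 5.29, 2.68 and 6.92 CPM, and 18 of the 24 UMIs lay in fibroblasts with 0 or 1 pericyte marker (4.02 CPM). The log2 fold of fibroblasts against the other types was 1.90 (SE 0.81, adjusted p 0.0650), which did not pass, though it did with gate leads of 1 (2.05, adjusted p 0.0287) and 2 (2.77, adjusted p 0.0183), both added after the data were seen. *Kcnj8* stood at 3.97 ± 3.12 CPM in the same 4 fibroblast sums, from 21 UMIs in 14 cells.

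Most Kir2.1 UMIs in gated cells were those of fibroblasts. *Kcnj2* measured 6.00, 17.9, 4.02 and 16.9 CPM there (11.2 ± 7.20, SD, n = 4), with 62 of the 90 UMIs in gated cells, in 52 of 1258 fibroblasts (4.13%, 1.06% after thinning). Control 2 and injury 2 were the higher libraries, so the libraries of one condition differed by more than the condition means, 11.9 and 10.5 CPM. Endothelial cells held 9, 4.51, 6.28 and 0 CPM, a range that overlaps that of fibroblasts. The 17 perineurial cells held 2 UMIs, a pooled 28.7 CPM with a 95% counting interval of 3.48 to 104. Neurons held 13 UMIs and SGC 1, while pericytes, myelinating Schwann cells and macrophages had none. The pooled fibroblast level was 19.8-fold the floor of 3 counts in macrophages, 2.59-fold that in myelinating Schwann cells and 2.1-fold that in pericytes. These pooled ratios are not lower bounds within a library. Control 1 and injury 1 gave 78 and 119 of the 221 pericytes, with a pooled floor of 5.40 CPM. Fibroblasts of those libraries held 6.00 and 4.02 CPM. *Kcnj2* was thus at 0 in the pericytes that held *Kcnj8*, and at 1 UMI in the SGC, which held most of the RNA of its chromosome 11 neighbour *Kcnj16*.

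*Kcnn3* RNA lay in neurons in these files. Of its 13 UMIs, 11 were in 9 neurons, with 1 in an endothelial cell and 1 in a fibroblast. The neuronal UMIs numbered 1, 8, 0 and 2 in control 1, control 2, injury 1 and injury 2, so control 2 gave most of them. All 9 neurons lay outside the size limits of the study. By fibre class, 6 UMIs were in A-fibre, 0 in C-fibre and 5 in unclassed neurons. Of 1408 SGC, 0 held a *Kcnn3* UMI, which allows a share of up to 0.213%. The limit bounds SGC with a counted UMI, not SGC that express SK3.

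The other potassium channel genes of the files, 93 in all with their auxiliary subunits, were counted by the same calls, and 25 of them had enough counts for the fit across types. Neurons had most, with 19 of 25 called higher and 2 lower where 16.9% of all genes were called higher, led by *Kcnb2* (log2 fold 8.54), *Kcnip4* (7.68), *Kcnc4* (7.66), *Kcnmb2* (7.32) and *Kcnc2* (7.11), the lower ones being *Kcnk5* (−3.64) and *Kcnn4* (−2.87). Their median log2 fold was 3.79 in neurons against 0.23 over all genes tested. Leaders such as *Kcnc4* (54.5 CPM in neurons, 0.41 in the next type) and *Kcnc2* (31.6 against 0.28) passed the count filter through their neuronal sums. The neuronal count and median were thus partly set in advance and are not read as an excess. Counts given for the other types are read in the same way. In SGC 8 of 25 were higher, against 10.7% of all genes, led by *Kcnh2* (4.76), *Kcnn4* (4.34), *Kcnk2* (4.31), *Kcnmb4* (4.18) and *Kcna6* (3.61), with a median of 0.54 against 0.23. The calcium-activated channel gene *Kcnn4*, of the family of *Kcnn3*, was at 229 ± 17.8 CPM in SGC, and the erythroid gate held 225 CPM.

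Each Schwann gate had 4 of 25 called higher, against 9.14% of all genes in the myelinating and 5.77% in the nonmyelinating gate. Myelinating cells were led by *Kcnk1* (6.94, a two-pore leak channel, 334 ± 59.4 CPM against 14.6 CPM in neurons, the next type), *Kcnmb4* (4.06), *Kcns3* (2.95) and *Kcnk5* (2.64). Nonmyelinating cells were led by *Kcnh2* (5.67), *Kcna6* (4.75), *Kcnk13* (4.01) and *Kcnn4* (3.29). Pericytes had 8 called higher against 9.92% of all genes, led by *Kcne4* (8.45), *Kcna5* (6.82), *Kcnab1* (4.78), *Kcnmb1* (4.69) and *Kcnj12* (4.56). Smooth muscle cells had 8 as well, also against 9.92%, led by *Kcna5* (9.76), *Kcne4* (7.58), *Kcnmb1* (7.05), *Kcnab1* (6.88) and *Kcnk3* (5.22), 4 of the 5 leaders being shared with pericytes. Between the mural types, *Kcna5* (log2 fold −2.67) and *Kcnmb1* (−2.15), the latter the beta subunit of the smooth muscle BK channel, were lower in pericytes, opposite to *Kcnj8* and *Abcc9*. Fibroblasts had 5 called higher against 12% of all genes, led by *Kcnk2* (5.60), *Kcne4* (3.74), *Kcnk5* (3.29), *Kcnmb2* (2.96) and *Kcns3* (2.67), macrophages had 3, *Kcnk13* (5.34), *Kcnab2* (3.20) and *Kcnip3* (2.44), against 12.3% (14% in either direction), and endothelial cells had 0 higher against 11.2%, and 1 lower, *Kcnn4*.

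Genomic neighbours differed in how alike their patterns were. *Kcna6*, beside *Kcna1*, was highest in nonmyelinating Schwann cells (275 ± 3.06 CPM, n = 2) and next in SGC (105 CPM), both of them types in which *Kcna1* was also high. Myelinating Schwann cells, the next highest type for *Kcna1* (1163 CPM), stood below SGC for *Kcna6*. *Kcna5*, the other neighbour, was highest in smooth muscle cells (374 ± 79.8 CPM, n = 3) and next in pericytes (80.3 CPM). *Kcnj9*, beside *Kcnj10*, had 5 UMIs in the gated sums, none of them in SGC.

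Injury at 3 days changed none of the channel genes past the test in any type that could be tested. In SGC the log2 fold of injury over control was −0.65 for *Kcnj10* (SE 0.54, 95% interval −2.0 to 0.70), −0.55 for *Kcna1* (SE 0.83, −2.86 to 1.77) and 0.33 for *Kcnj16* (SE 0.42, −0.62 to 1.28), with adjusted p of 1.00 for each by edgeR. The mean level of *Kcnj10* was 358 CPM in control and 199 CPM in injury SGC, and control 1 alone, with 68 SGC, set the higher control mean. Without control 1 the log2 fold of *Kcnj10* was 0.24 and that of *Kcna1* 0.66, so the direction of both in this unpaired fit depended on that library. Set side by side by replicate number, both genes were lower in the injury library of each pair. No gene at all was called in SGC (0% of 9023 genes), where 100 genes had an unadjusted p under 0.05 and DESeq2 also called 0 of these channel genes.

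In myelinating Schwann cells *Kcna1* had a log2 fold of −0.31 (SE 0.49) and in neurons 0.74 (SE 0.37, 95% interval −0.15 to 1.63, adjusted p 0.560). The injured neurons held 71.0 and 96.1 CPM and the control neurons 32.3 and 75.1 CPM, so the groups overlapped. Set side by side by replicate number, the injury library was the higher in each pair. This log2 fold stayed above 0 and uncalled in all 12 alternatives (0.34 to 1.47). Neuronal *Kcnj10* had a log2 fold of 0.50 (SE 0.73, adjusted p 0.836), which ranged from 0.037 without control 1 to 2.57 without control 2. In fibroblasts *Kcnj2* was at −0.21 (SE 0.74) and *Kcna1* at −0.01, in endothelial cells *Kcna1* was at −0.05, and in macrophages *Kcnj10* was at −0.12 and *Kcna1* at −0.21. The share of all genes called was 0% in myelinating Schwann and endothelial cells, 0.0442% in fibroblasts, 0.0537% in macrophages and 0.0094% in neurons. Genes with an unadjusted p under 0.05 numbered 46 of 2659 in myelinating Schwann and 106 of 6117 in endothelial cells. Of the other potassium channel genes, 15 had enough counts to be tested in SGC and 50 in neurons, and none was called in any of these types. Control 2 decided the *Kcna1* values of endothelial cells and macrophages, since without it the only control library was control 1, with 0 CPM in endothelial cells and 2.87 CPM in macrophages. The fit then called both, with adjusted p of 0.00823 and 0.00263, taking control 1 to vary like the injury libraries. The fold in endothelial cells has no defined size there, and that in macrophages was 3.26 on the log2 scale.

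The injury effect was compared between SGC and myelinating Schwann cells. The difference was 0.29 on the log2 scale for *Kcnj10* (SE 1.40) and −0.15 for *Kcna1* (SE 1.3), neither of them called, and 0% of all genes were called. Pericytes had only 9 cells in injury 2 and could be tested only with a looser gate, added after the data were seen. There *Kcnj8* had a log2 fold of 0.05 (95% interval −1.43 to 1.52) and *Abcc9* of 0.05 (−1.09 to 1.19). With 2 libraries per condition these intervals still allow changes of 2-fold and more for most of the genes.

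**Figure D4:**
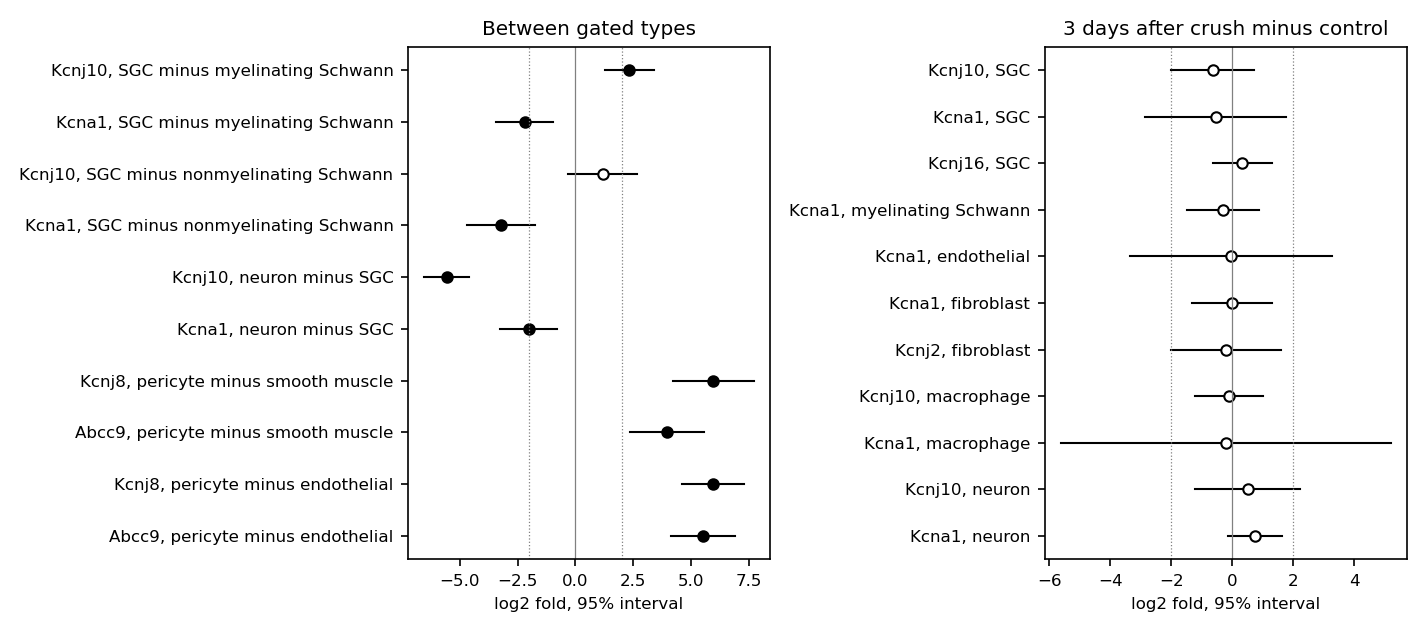
Log2 folds with their 95% intervals (horizontal axis) for the channel genes between cell types (left) and for injury over control within types (right), with filled points for called genes and dotted lines at a 4-fold change. The contrasts between types of *Kcnj8*, *Abcc9* and *Kcnj10* lie clear of 0 except for *Kcnj10* between SGC and nonmyelinating Schwann cells (1.17), while every injury interval includes 0.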

How the data were processed

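Droplet single-cell RNA-seq was deposited as 1 matrix of UMI counts per library, 2 control and 2 injury libraries of mouse DRG. Per the labels, the authors made these counts with Cell Ranger against mm10 and analysed them with Partek, with no normalization of the deposited counts. From these deposited counts, neurons were gated among all barcodes by at least 6 of 10 markers, and other types by at least 3 markers at a lead of 1.25 in the share of markers detected over the next type, within the study's limits of 600 to 15000 UMIs, 500 to 4000 genes and under 10% mitochondrial UMIs. No doublet caller was run, and barcodes with markers of 2 types are shown as such.

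Counts were summed per library and type for sums of at least 10 cells. The edgeR quasi-likelihood test (version 4.0.16, R 4.3.3, TMM, filterByExpr) with the library as a block compared 11 types over 38 sums and 8236 genes, and a fit within each type compared injury with control without a block. P-values were Benjamini-Hochberg adjusted over all genes tested. Calls took a log2 fold of at least 2 with an adjusted p under 0.05. DESeq2 1.42.0 and other gates, filters and scalings were alternatives. The number of counts limited detection, and a floor of 3 counts over pooled libraries stood for a count of 0. Thinned shares are the expected share at 1000 UMIs per cell, with shallower cells left out. Simulated data with known folds were run for SGC against the other types and for injury in SGC and in myelinating Schwann cells. The other fits were not tested on simulated data.

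All 8 channel genes, in every type, were described, and the other potassium channel genes called were named up to 5 per type by log2 fold. The 3 genes most like a channel gene had the highest Pearson r of log2(CPM + 1), among genes outside the gate markers with at least 100 UMIs. For *Kcna1*, 1 of the 3 is not reported here. The genes, lists and gates were chosen with earlier results of these data known. Replicates are pools of mice. The study reports 2 independent experiments, and no label ties the replicate numbers of the conditions to them. Depth and cell numbers did go with the replicate number. Median UMIs per barcode were 2756 and 3118 in control 1 and injury 1, against 4197.5 and 4934.5 in control 2 and injury 2. Pericytes numbered 78 and 119 against 15 and 9. The main injury fit took no account of this.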

Additional observations from a re-analysis of the deposited data

How the results depend on the processing

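In the contrasts of one type against the others, that of macrophages not counted, the 8 calls of the channel genes became 13 with DESeq2. They ranged from 4 (without control 1) to 11 when 1 library was left out, with 5 without injury 1. Between pairs of types the 9 calls ranged from 5 (without injury 1) to 10. For injury, the count of 0 ranged from 0 to 2, the 2 being the *Kcna1* values without control 2. The higher levels of *Kcnj10* in SGC (log2 fold 4.60 to 6.13), *Kcnj8* (7.47 to 10.3) and *Abcc9* (5.70 to 8.46) in pericytes and *Kcna1* in myelinating Schwann cells (3.87 to 4.80) stayed called in all 11 alternatives run for them, and that of *Kcna1* in nonmyelinating Schwann cells in all 8 (4.92 to 6.11). *Kcnj10* in myelinating Schwann cells (1.98) and *Kcna1* in SGC against them (−1.93) lost the call with DESeq2, and *Kcna1* in neurons against SGC (−1.98) with the RLE scaling. With cells thinned to 2000 UMIs, the share with a UMI rose to 3.50% for *Kcnj16* in SGC, 18.9% for *Abcc9* in pericytes, 2.09% for *Kcnj2* in fibroblasts, 3.56% for *Kcna2* in nonmyelinating Schwann cells and 0.364% for *Kcnn3* in neurons. This keeps more UMIs per cell and also leaves out cells under 2000 UMIs, and *Kcna2* there is 1 UMI in 1 cell.

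Most injury log2 folds lay near 0 and several changed sign. With all deposited barcodes *Kcnj16* in SGC was −0.068, *Kcnj2* in fibroblasts 0.060 and *Kcna1* in endothelial cells 0.17. With DESeq2 *Kcna1* was 0.36 in endothelial cells and 0.019 in fibroblasts. Gate leads of 1 and 2 were chosen after seeing the data, and gave 0.10 for *Kcna1* in endothelial cells and 0.030 for its difference between SGC and myelinating Schwann cells. Leaving out 1 library moved *Kcnj10* between −1.28 and 0.24 in SGC and between −0.60 and 0.29 in macrophages, and *Kcnj2* in fibroblasts between −1.45 and 0.78. It moved *Kcna1* between −1.29 and 0.66 in SGC, −1.01 and 0.32 in myelinating Schwann cells, −0.61 and 7.30 in endothelial cells, −0.54 and 1.01 in fibroblasts and −1.55 and 3.26 in macrophages, the 7.30 being set against a lone control library at 0 counts. The cause was not tested.

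With the replicate number as a block, 0 channel genes were called, and *Kcna1* was 0.071 in endothelial cells, 0.067 in fibroblasts and 0.16 in macrophages. Over all genes the replicate block called 5 in SGC, 5 in myelinating Schwann cells, 1 in endothelial cells, 6 in fibroblasts, 58 in macrophages and 33 in neurons, against 0, 0, 0, 4, 4 and 1 without it. Same-numbered SGC libraries deviated together over 5822 genes (r = 0.38), which rests on 2 pairs, and no label ties the numbers to a shared batch. With no filter on low counts 6, 3, 0, 11, 78 and 196 genes were called in the same order of types, and with DESeq2 1, 0, 0, 7, 19 and 92. Low counts and the 2 libraries per condition limit *Kcnj16*, *Kcnj2*, *Kcna2* and *Kcnn3* most.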
